A study of Rattus norvegicus with 8 samples.

Results

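The genes described here are the repressors and output factors of the circadian clock: the period genes *Per1*, *Per2* and *Per3*, the cryptochrome genes *Cry1* and *Cry2*, the REV-ERB genes *Nr1d1* and *Nr1d2*, the PAR bZIP genes *Dbp* and *Tef*, and *Ciart*. They were chosen by name. Every probe other than a control whose RefSeq accession maps to 1 of these 10 rat symbols was taken, which gave 13 of the 45598 probes of the array. *Per1*, *Nr1d2* and *Dbp* have 2 probes each and the other genes have 1. All 13 probes were above background on all 8 arrays.

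In the circadian clock, the activators CLOCK and BMAL1 bind E-box sequences and switch on the *Per* and *Cry* genes, whose proteins then repress their own activators. The same activators drive the REV-ERB genes, which repress *Bmal1*, and *Dbp* and *Tef*, whose products bind D-box sequences in further target genes. Transcripts of these genes rise and fall over the day in most tissues, brain regions outside the suprachiasmatic nucleus included, so that their levels depend on the hour at which a tissue is taken.

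RNA came from the *substantia nigra* (SN) of female Sprague Dawley rats on the side that had received a stereotaxic vector injection 20 weeks earlier, at 3 months of age. The vector was AAV6 with wild-type human α-synuclein (AAV-αSyn, written AAV-aSyn in the figures; 5.2e+10 vg/µL, vector genomes per microlitre) or AAV6 with no transgene (AAV-Null; 5.3e+09 vg/µL), so that transgene and titre cannot be told apart. Each group has 4 arrays, 1 sample to an array, from a study with 10 rats per group. The rats were kept at 12 h of light and 12 h of dark and were killed by decapitation under isoflurane anaesthesia. The hour of death is not given in the sources used here. The methods describe the samples as biological replicates, with the SN dissected brain by brain. They give 3 per group where 4 were deposited, and all 8 arrays were used as separate samples, although the labels do not tie an array to a rat. As a model, the vector reaches 1 side of the brain, the dissected block holds many cell types besides dopaminergic neurons, and in such a block fewer cells of a type and less RNA per cell cannot be told apart.

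A single slide and a single scan hold the 8 arrays. The share of spots well above background ran from 74.8% to 77.5%. None of the 22 spots that carry these genes was saturated or marked as an outlier. Among dopaminergic markers of the SN, 7 were tested and 4 had a lower signal after AAV-αSyn at an unadjusted p under 0.05. On a log2 scale the mean of the 7 ranged from 12.47 to 12.93 in the AAV-Null group, and from 12.06 to 12.38 in the AAV-αSyn group. AAV-Null replicate 3 stood apart from the rest over the whole array, with the highest or the lowest value of the 8 arrays at 57.5% of the probes above background on all of them. For AAV-Null replicate 4 this share was 35.5%. Many results below rest on these 2 arrays, and values without them are given where they were computed, a choice made after seeing the data.

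The clock acts through short sequence motifs in promoters, and some stretches of the members' promoters that hold such motifs are shown to place the genes in the loop. Those of *Cry2* and *Nr1d2* are not shown. The windows come from RefSeq on the assembly GRCr8, run from 250 bases before to 50 after a transcription start, and were found for 9 of the 10 genes, all but *Cry1*. *Nr1d1* has 2 windows. Both strands were searched for the E-box CACGTG, the related CACGTT, the D-box TTATGTAA, the core of the REV-ERB site AGGTCA and the cAMP response element TGACGTCA. The stretches below read 5′ to 3′ on the strand of the gene, with matches in capitals, where AACGTG is CACGTT on the opposite strand.
*Nr1d1*, chr10:84229620-84229669, minus strand, E-box: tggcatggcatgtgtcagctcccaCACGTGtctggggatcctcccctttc
*Nr1d1*, chr10:84231963-84232012, minus strand, related E-box: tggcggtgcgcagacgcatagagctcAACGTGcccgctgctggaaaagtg
*Per2*, chr9:99497034-99497198, minus strand, D-box and related E-box: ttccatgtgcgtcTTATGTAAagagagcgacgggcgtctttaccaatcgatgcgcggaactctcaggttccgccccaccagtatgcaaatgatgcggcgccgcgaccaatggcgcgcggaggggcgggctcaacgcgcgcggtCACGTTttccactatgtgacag
*Ciart*, chr2:186112247-186112351, minus strand, E-box: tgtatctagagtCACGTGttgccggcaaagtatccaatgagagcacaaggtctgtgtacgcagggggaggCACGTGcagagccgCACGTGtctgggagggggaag
*Tef*, chr7:115206612-115206661, plus strand, E-box: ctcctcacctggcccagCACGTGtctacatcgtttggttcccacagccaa

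The E-box CACGTG lies in 1 window each of *Nr1d1*, *Tef* and *Ciart*, and in 6.42% of the 33469 windows of the annotation. *Ciart* holds it at 3 places, 93, 35 and 21 bases before its start. The related CACGTT is in windows of *Per2*, *Cry2* and *Nr1d1*, against 4.83% of all windows. *Per2* alone of the members with a window holds the D-box, 192 bases before its start, against 0.893% of all windows. The REV-ERB core AGGTCA is in the window of *Nr1d2* and in 16.2% of all windows. TGACGTCA is in none of the 10 windows of the members and in 1.83% of all windows. A match, or its absence, is a description of the letters in these windows, and the factors themselves were not measured.

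Of the 10 genes, *Nr1d1* alone differed between the groups at an unadjusted p under 0.05, and it was lower in the AAV-αSyn group. Of all 33853 probes tested, 5.64% passed this threshold, 3.31% higher and 2.32% lower. With the Benjamini–Hochberg adjustment over all of these probes, 0 of the 10 genes passed a threshold of 0.05, against 0.0148% of all probes. Their lowest adjusted p from limma's test was 0.85. The mean was higher in the AAV-αSyn group for 5 genes, where it was higher for 52.4% of all probes, and lower for the other 5. Their median log2 fold change was −0.01, where that of all probes was 0.01, and their median absolute log2 fold change was 0.06, where that of all probes was 0.10.

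**Figure D1:**
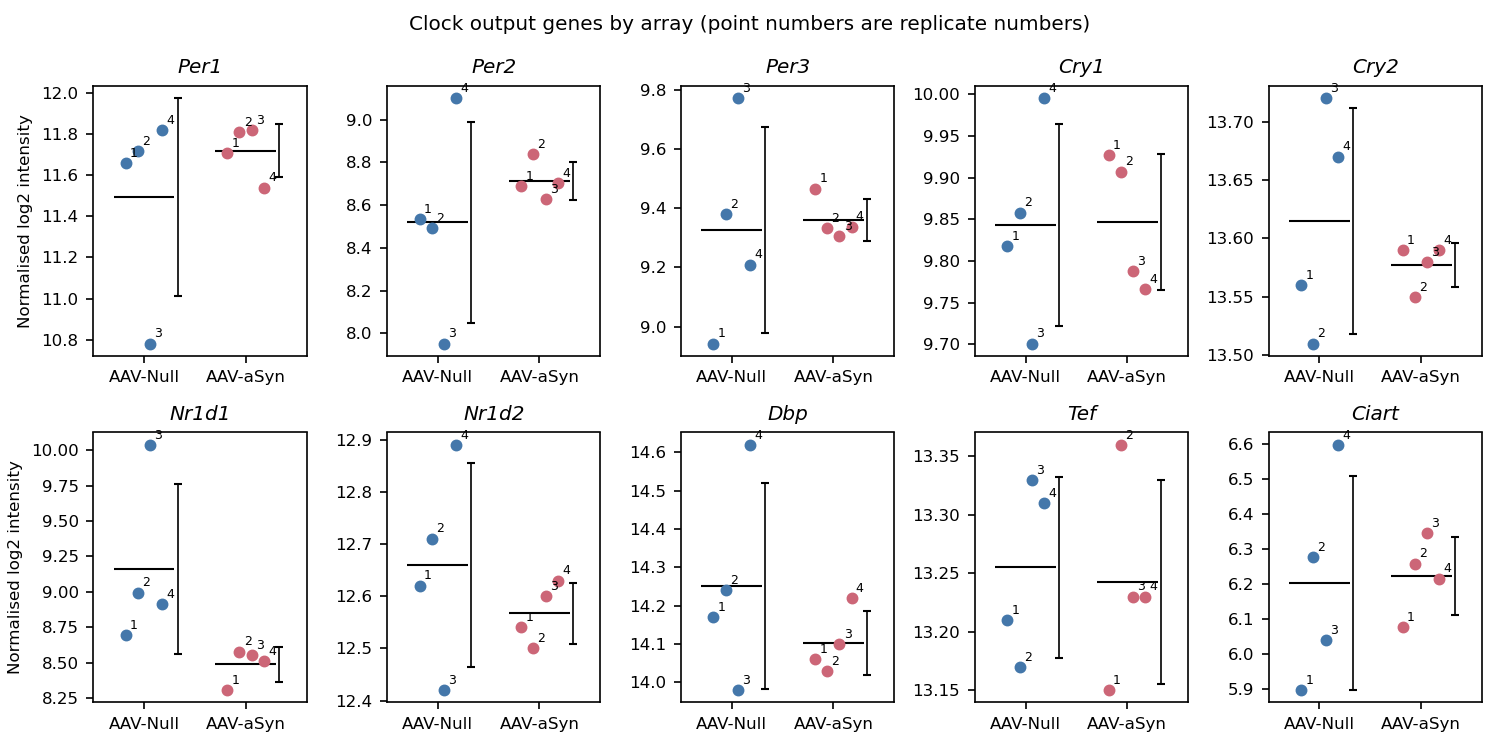
Normalised log2 intensity (vertical axis, one scale per panel) of the 10 clock output genes on the 4 AAV-Null and 4 AAV-aSyn arrays, each numbered by its replicate, with horizontal lines at group means and bars for ± 1 SD. *Nr1d1* is the gene whose groups do not overlap, and AAV-Null replicate 3, replicate 4 or both are the highest or lowest array in 9 of the 10 panels, both in 5.

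The period proteins form the repressor complex with the cryptochromes, and *Per1* is also an immediate target of glucocorticoid and cAMP signalling. In replicate order, the log2 intensity of *Per1* was 11.66, 11.72, 10.78 and 11.82 in the AAV-Null group. In the AAV-αSyn group it was 11.71, 11.81, 11.82 and 11.54. AAV-Null replicate 3 lay below the other 7 arrays, and the groups overlapped. The log2 fold change was 0.22 (95% confidence interval −0.28 to 0.73; exact permutation p = 0.629; limma, adjusted p = 0.973). It was −0.01 without AAV-Null replicate 3. The second *Per1* probe gave 0.20 (limma, adjusted p = 0.972), and its deviations from the group means followed those of the first with r = 0.72.

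*Per2* encodes the period protein that carries much of the daily rhythm of the loop. It measured 8.53, 8.49, 7.95 and 9.10 in the AAV-Null group, again in replicate order, and 8.69, 8.84, 8.63 and 8.70 in the AAV-αSyn group. The 4 AAV-αSyn values lay within the range set by AAV-Null replicates 3 and 4, the lowest and the highest of all 8. The difference was 0.19 on the log2 scale (95% interval −0.30 to 0.69; exact permutation p = 0.514; limma, adjusted p = 0.973). This value turned on those arrays. It was 0.01 without AAV-Null replicate 3 and 0.39 without AAV-Null replicate 4, where the limma p before adjustment came to 0.0393. With both left out it was 0.20, and that p was 0.0445. The share of all probes past the same threshold was also higher then, at 8.28% without AAV-Null replicate 4 and 9.23% without both, against 5.64% with all arrays.

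*Per3*, whose product is the least needed of the period proteins for the rhythm, had log2 intensities of 8.94, 9.38, 9.77 and 9.21 in the AAV-Null group and of 9.47, 9.33, 9.31 and 9.34 in the AAV-αSyn group. Here AAV-Null replicate 3 was the highest array and AAV-Null replicate 1 the lowest, so that *Per3* ran opposite to *Per1* and *Per2* on AAV-Null replicate 3. The group means differed by 0.04 (95% interval −0.34 to 0.41; exact permutation p = 0.8; limma, adjusted p = 0.992). Its sign turned without AAV-Null replicate 1, to −0.09, and it was 0.18 without AAV-Null replicate 3 and 0.00 without AAV-Null replicate 4 or AAV-αSyn replicate 1.

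The cryptochromes, which repress CLOCK and BMAL1 directly, varied little. *Cry1* lay between 9.70 and 10.00 over the 8 arrays and *Cry2* between 13.51 and 13.72. The log2 fold change of *Cry1* was 0.00 (95% interval −0.19 to 0.20; exact permutation p = 1; limma, adjusted p = 0.998). That of *Cry2* was −0.03 (−0.20 to 0.13; exact permutation p = 0.486; limma, adjusted p = 0.987). Array weights turned both signs. The intervals limit a difference of either gene to at most 0.20 on the log2 scale in either direction.

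*Nr1d1* encodes REV-ERBα, the nuclear receptor that represses *Bmal1* and ties the clock to metabolism. The AAV-Null arrays gave log2 intensities of 8.69, 8.99, 10.04 and 8.92, a mean of 9.16 ± 0.599 (SD, n = 4). On the AAV-αSyn arrays it was 8.31, 8.58, 8.55 and 8.51, a mean of 8.49 ± 0.124 (SD, n = 4). Every AAV-αSyn array was below every AAV-Null array, which held in this direction for 1.26% of all probes tested and in either direction for 3.83%. The nearest arrays of the groups were AAV-Null replicate 1 and AAV-αSyn replicate 2, while AAV-Null replicate 3 lay far above the rest.

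The log2 fold change of *Nr1d1* was −0.67 (standard error 0.27, 95% interval −1.29 to −0.05), a level 0.627 times that of the AAV-Null group. The limma p was 0.0367 before and 0.85 after adjustment. The exact permutation test of the means gave a two-sided p of 0.0286, the smallest that 4 arrays against 4 allow. Without AAV-Null replicate 3 the log2 fold change was −0.38, with a limma p of 0.00805 before adjustment. In that setting 8.14% of all probes passed 0.05, against 5.64% with all arrays. Leaving out AAV-αSyn replicate 1, 2, 3 or 4 raised the limma p before adjustment to 0.0825, 0.0557, 0.0583 or 0.0631, with log2 fold changes of −0.61, −0.70, −0.70 and −0.68. The share of all probes past 0.05 then lay between 4.26% and 5.1%. Over 10 processing alternatives the log2 fold change lay between −0.69 and −0.47 and the limma p before adjustment between 0.00795 and 0.0481. The lowest p and the smallest change came with array weights, where 17% of all probes passed 0.05. The difference was −0.53 among arrays in column 1 of the slide and −0.82 among those in column 2, with 2 arrays per group in each. *Nr1d1* has a single probe here, and its 3′ end overlaps *Thra* on the opposite strand, with the position of the probe in that overlap not analysed here.

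*Nr1d2*, which encodes the paralogue REV-ERBβ, had log2 intensities of 12.62, 12.71, 12.42 and 12.89 in the AAV-Null group and of 12.54, 12.50, 12.60 and 12.63 in the AAV-αSyn group. The AAV-αSyn values lay between AAV-Null replicate 3, the lowest, and AAV-Null replicate 2. The difference was −0.09 (95% interval −0.34 to 0.15; exact permutation p = 0.457; limma, adjusted p = 0.973). It was −0.17 without AAV-Null replicate 3 and −0.02 without AAV-Null replicate 4. Its second, dimmer probe gave −0.21 (limma, adjusted p = 0.94), and the deviations of the 2 probes did not follow each other (r = −0.30). The difference between the responses of *Nr1d1* and *Nr1d2* was not tested.

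*Dbp*, a D-box activator whose transcript has one of the largest daily swings known in mammalian tissue, was measured by a probe printed in 10 spots. The spots of an array agreed closely, with an SD of 0.0176 to 0.0508 on the log2 scale. Its level was 14.17, 14.24, 13.98 and 14.62 in the AAV-Null group and 14.06, 14.03, 14.10 and 14.22 in the AAV-αSyn group. AAV-Null replicates 3 and 4 were again the lowest and the highest by this probe. A second probe of similar brightness gave 13.94, 14.17, 14.34 and 14.30 in the AAV-Null group, where replicate 3 was the highest of all 8 arrays, and 13.88, 13.85, 14.06 and 14.04 in the AAV-αSyn group. The deviations of the 2 probes had r = 0.226. By the first probe the whole range over 8 arrays was 0.63, or 1.55-fold. The difference between groups was −0.15 (95% interval −0.46 to 0.16; exact permutation p = 0.343; limma, adjusted p = 0.972), and −0.23 (adjusted p = 0.912) by the second probe. By the first it was −0.24 without AAV-Null replicate 3 and −0.03 without AAV-Null replicate 4.

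*Tef*, the other D-box activator, lay between 13.15 and 13.36 on all 8 arrays. Its log2 fold change was −0.02 (95% interval −0.19 to 0.16; limma, adjusted p = 0.993), and array weights turned it to 0.06. *Ciart*, which encodes a repressor of CLOCK and BMAL1, was 5.90, 6.28, 6.04 and 6.60 in the AAV-Null group and 6.08, 6.26, 6.34 and 6.22 in the AAV-αSyn group. The AAV-αSyn values lay inside the AAV-Null range. The log2 fold change of *Ciart* was 0.02 (95% interval −0.33 to 0.37; exact permutation p = 0.914; limma, adjusted p = 0.994), and its sign turned without AAV-Null replicate 1 or 3 and without AAV-αSyn replicate 3.

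**Figure D2:**
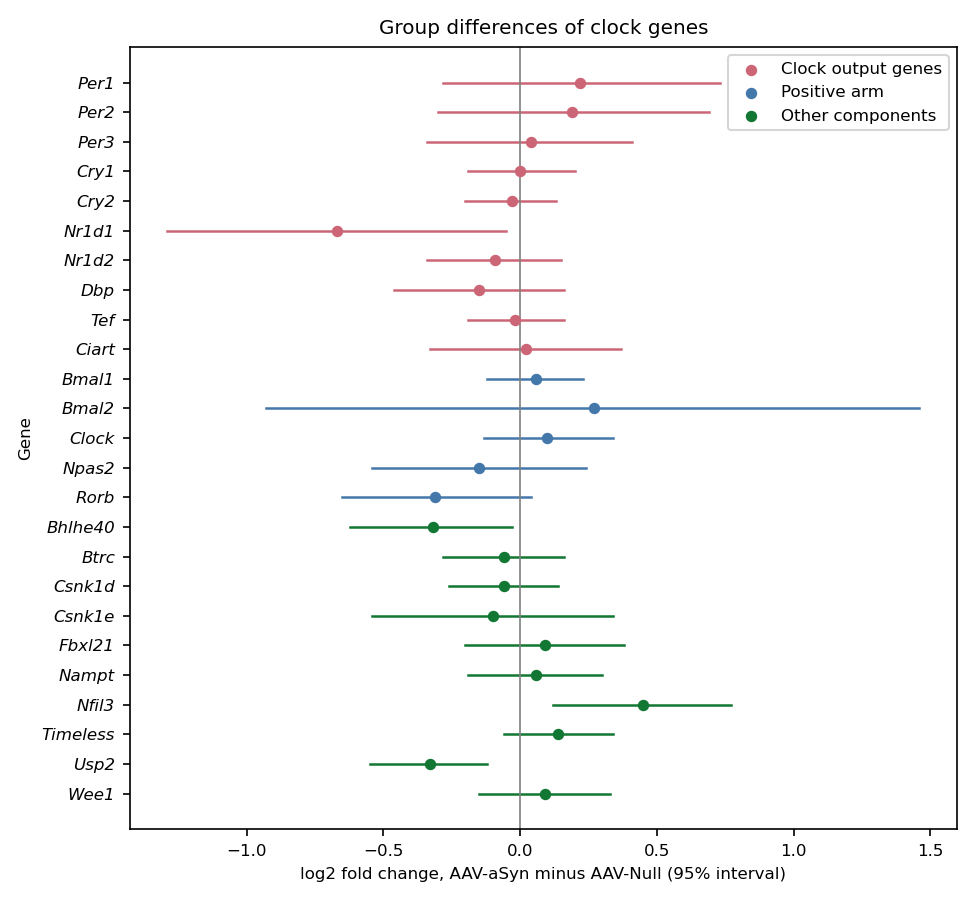
Log2 fold change, AAV-aSyn minus AAV-Null (horizontal axis), with the 95% interval from limma for the 10 clock output genes, 5 genes of the positive arm and 10 other clock components (vertical axis). Intervals that leave out 0 are those of *Nr1d1*, *Bhlhe40*, *Nfil3* and *Usp2*.

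Of the other parts of the clock, the positive arm (*Bmal1*, *Bmal2*, *Clock*, *Npas2* and the ROR genes) had 5 of its 7 genes on the array, and none passed an unadjusted p of 0.05. *Bmal1*, whose rhythm runs opposite to that of *Dbp* in known tissues, was 10.32, 10.54, 10.37 and 10.35 in the AAV-Null group and 10.43, 10.54, 10.43 and 10.41 in the AAV-αSyn group. The 2 groups overlapped, with a log2 fold change of 0.06 (95% interval −0.12 to 0.23; exact permutation p = 0.4; limma, adjusted p = 0.974). *Clock*, *Npas2* and *Rorb* had log2 fold changes of 0.10, −0.15 and −0.31 (exact permutation p = 0.343, 0.457 and 0.114). *Bmal2* (0.27, exact permutation p = 0.657) was above background on 1 array only.

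Among further components, which include the kinases, ubiquitin ligases and other DNA-binding repressors of the clock, 10 of 12 genes were on the array. At an unadjusted p under 0.05, 1 was higher, 2 were lower, and 0 passed the adjustment. *Nfil3*, which competes with *Dbp* for the D-box, was 8.62, 8.89, 8.98 and 8.50 on the AAV-Null arrays and 9.31, 9.15, 9.37 and 8.94 on the AAV-αSyn arrays. Its lowest AAV-αSyn array lay just below the highest AAV-Null array, and the log2 fold change was 0.45 (95% interval 0.12 to 0.77; exact permutation p = 0.0571; limma p 0.0131 before adjustment, adjusted p = 0.747). *Usp2*, a clock-controlled deubiquitinase, was 11.36, 11.54, 11.55 and 11.28 in the AAV-Null group and 11.13, 11.06, 11.22 and 11.00 in the AAV-αSyn group. These groups did not overlap, and the log2 fold change was −0.33 (−0.55 to −0.12; exact permutation p = 0.0286; limma p 0.00707 before adjustment, adjusted p = 0.674). *Bhlhe40*, an E-box repressor, gave −0.32 (exact permutation p = 0.0857; limma p 0.0364 before adjustment, adjusted p = 0.85). The others, *Btrc* (−0.06), *Csnk1d* (−0.06), *Csnk1e* (−0.10), *Fbxl21* (0.09), *Nampt* (0.06), *Timeless* (0.14) and *Wee1* (0.09), had log2 fold changes that did not pass.

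With all 8 arrays, the clock output genes differed more among the AAV-Null arrays than among the AAV-αSyn arrays. AAV-Null replicate 3, replicate 4 or both were the highest or lowest array for 9 of the 10 genes. The SD was larger in the AAV-Null group for 9 of the 10 genes, all but *Tef*, where it was larger for 73.1% of the 29656 probes above background on all arrays. The median ratio of the 2 SDs was 3.48 for the genes and 1.58 for those probes. It was highest for *Per2*, at 5.31. Without AAV-Null replicate 3 the median ratio was 2.56 for the genes and 1.11 for the probes, and *Per1* went from 3.63 to 0.616. Without AAV-Null replicate 4 these medians were 3.12 and 1.39. With both arrays left out, the SD was larger in the AAV-Null group for 5 of the 10 genes and 35.8% of the probes, with median ratios of 0.80 and 0.696, and *Per2* was at 0.325. The AAV-Null SD then rests on 2 arrays. As the arrays left out were picked for their extreme values, a lower AAV-Null SD without them is built in where they are the extremes. In the AAV-αSyn group the median SD of the genes was 0.086 on the log2 scale. AAV-Null replicate 3 was the highest array for 3 genes (*Per3*, *Cry2*, *Nr1d1*) and the lowest for 5 (*Per1*, *Per2*, *Cry1*, *Nr1d2*, *Dbp*), where it was the highest for 27.0% and the lowest for 30.4% of all probes above background on all arrays. AAV-Null replicate 4 was the highest for 6 (*Per1*, *Per2*, *Cry1*, *Nr1d2*, *Dbp*, *Ciart*) and the lowest for 0, against 19.6% and 16.0% of those probes. These 2 arrays lie in different columns of the slide, replicate 4 in column 1 and replicate 3 in column 2. The group difference within column 1 and within column 2 was −0.14 and 0.53 for *Per2*, −0.35 and 0.05 for *Dbp*, and −0.23 and 0.27 for *Ciart*, with 2 arrays per group in each. The sign differed between the columns for 7 of the 10 genes, and *Nr1d1* was lower in both.

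**Figure D3:**
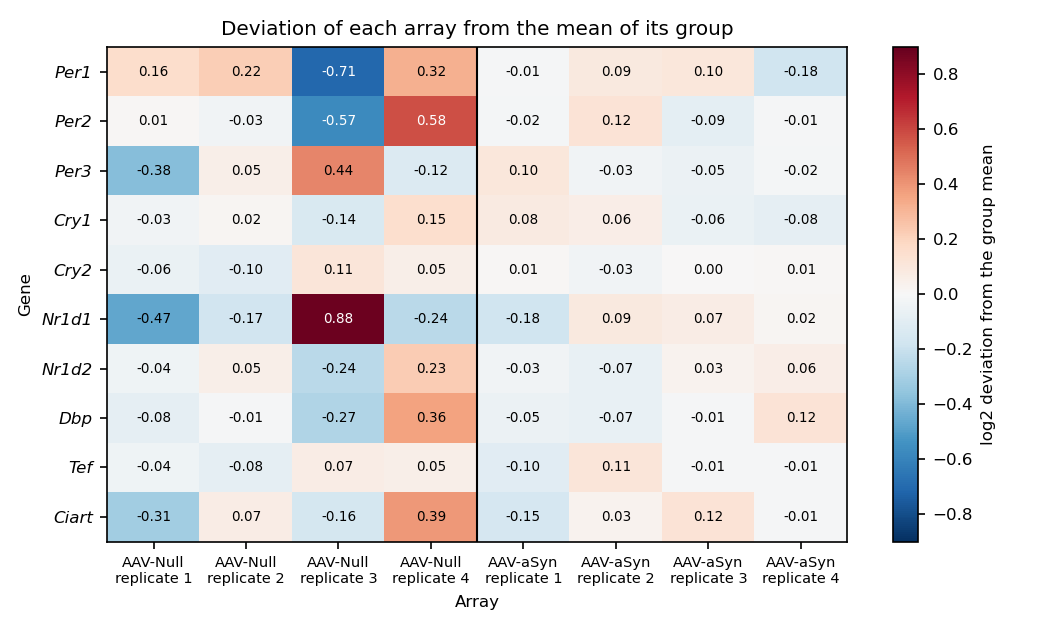
Deviation of each array (horizontal axis) from the mean of its own group in log2 units, for each clock output gene (vertical axis), in colour and in digits. AAV-Null replicate 3 ranges from −0.71 for *Per1* to 0.88 for *Nr1d1*, and AAV-Null replicate 4 reaches 0.58 for *Per2*.

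Whether the arrays differed together was examined on the deviations from the group means. On AAV-Null replicate 3, *Per1* was 0.71 and *Per2* was 0.57 below the group mean, with *Dbp*, *Nr1d2*, *Ciart* and *Cry1* below it by smaller amounts. *Nr1d1* was 0.88 and *Per3* was 0.44 above it. On AAV-Null replicate 4, 8 of the 10 genes were above the group mean, led by *Per2* (0.58), *Ciart* (0.39), *Dbp* (0.36) and *Per1* (0.32). No deviation among the AAV-αSyn arrays was larger than that of *Nr1d1* or *Per1*, both −0.18.

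Over the 45 pairs of genes, Pearson's r of the deviations was above 0 for 25 and below 0 for 20, with a median of 0.11. This median was 0.41 without AAV-Null replicate 3, 0.05 without AAV-Null replicate 1 or 4, and −0.08 with normexp background correction. It was 0.16 within the AAV-Null arrays and −0.08 within the AAV-αSyn arrays. The median over 20000 pairs drawn from the probes above background on all arrays was 0.02. The pairs ran from −0.88 (*Per1* and *Nr1d1*) to 0.96 (*Nr1d2* and *Dbp*), and a first component held 58.9% of the standardised deviations, against 51.2% without AAV-Null replicate 3, 63.9% without AAV-Null replicate 4 and 37.8% without both. *Per1*, *Per2*, *Cry1*, *Nr1d2* and *Dbp* were positively related in every pair, while *Per3* and *Nr1d1* were related to each other (0.87) and negatively to those 5. These are descriptions from 8 points that share their arrays and their normalisation, with sets named from the values themselves and not tested. They use the brightest probe of each gene, and with the dimmer probe of *Per1*, *Nr1d2* and *Dbp*, the median r of the pairs was 0.01.

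**Figure D4:**
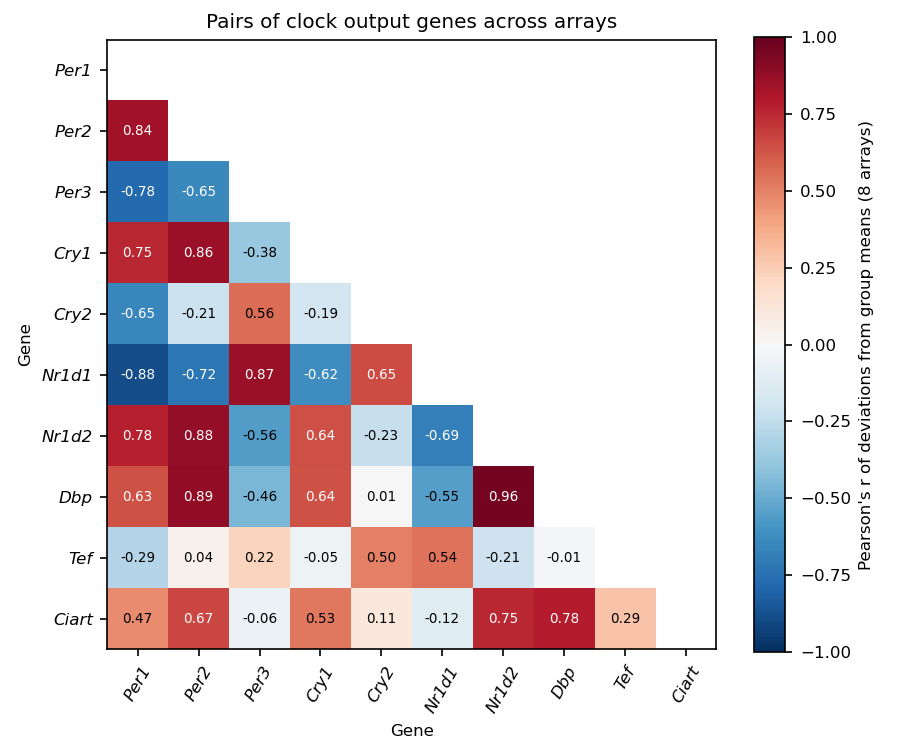
Pearson's r between the clock output genes (both axes) over the 8 arrays, computed on deviations from the group means, in colour and in digits. *Nr1d2* and *Dbp* give the highest value, 0.96, and *Per1* and *Nr1d1* the lowest, −0.88.

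Most of these relations changed when AAV-Null replicate 3, replicate 4 or both were left out. The values that follow use group means over the arrays that remained. Without AAV-Null replicate 3, *Per1* and *Nr1d1* had r = 0.35 in place of −0.88, *Per1* and *Per3* had 0.15 in place of −0.78, and *Per1* and *Per2* had 0.43 in place of 0.84. Other pairs became stronger without it, such as *Cry2* with *Dbp* (0.87 in place of 0.01) and *Per2* with *Cry2* (0.83 in place of −0.21). With both arrays left out, *Per2* and *Dbp* had −0.41 in place of 0.89 over 6 arrays, and *Per2* and *Nr1d2* had −0.70 in place of 0.88. *Nr1d2* and *Dbp* had 0.89. Pairs over 0.7 in size numbered 13 with all arrays and 7 without these 2, but *Nr1d2* with *Dbp* was the 1 pair in both counts. The other 6 did not pass 0.7 with all arrays. Among them, *Nr1d1* with *Ciart* had 0.95, and 0.73 without AAV-Null replicate 3 alone. *Cry2* with *Nr1d1* had −0.83, but 0.84, of opposite sign, without AAV-Null replicate 4 alone. No share over all pairs of probes is given for these counts.

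*Dbp* was set against the other 9 genes and *Bmal1*, 10 relations over 8 arrays. The p-values come from pairing all 8 deviations anew, as if they were interchangeable. Deviations within a group are tied by its mean, and for most of these genes they were larger among the AAV-Null arrays. These p-values are therefore approximate and may be too small. With *Nr1d2*, Pearson's r was 0.96 (exact permutation p = 0.00067, 0.0067 after adjustment over the 10) and Spearman's rho was 0.95 (exact p = 0.00114, adjusted 0.0114). The 2 arrays farthest from the median of *Dbp* were AAV-Null replicates 3 and 4. Without them Pearson's r was 0.81 when the deviations were still taken from the means of all 4 arrays of a group, as in the values for the other genes below, and 0.89 from the means of the remaining arrays. The relation did not hold between the other probes of the 2 genes, which gave r = −0.37, 0.11 and 0.01 in the remaining 3 combinations. With *Per2* the values were 0.89 (exact p = 0.0285, adjusted 0.0952) and rho 0.33 (exact p = 0.428, adjusted 0.715), and r was −0.38 without those arrays. With *Ciart* they were 0.78 (exact p = 0.0277, adjusted 0.0952) and rho 0.79 (exact p = 0.0279, adjusted 0.14), and 0.38 without them. *Bmal1* showed r = −0.15 (exact p = 0.68, adjusted 0.85) and rho −0.07 (exact p = 0.882, adjusted 0.882), and −0.16 without them. For the remaining 6 genes r lay between −0.55 and 0.64, with adjusted exact permutation p from 0.219 to 0.987. Without those arrays r for these 6 lay between −0.74 and 0.44. The sign turned for *Per1* (0.63 to −0.74), *Cry1* (0.64 to −0.66) and *Nr1d1* (−0.55 to 0.44), among others.

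The hour of death is not known for any array, so a shared effect of the time of collection was not tested. *Nr1d1* and *Dbp* are both direct E-box targets that peak in the light phase in most tissues of rodents. On AAV-Null replicate 3, *Nr1d1* was above its group mean and *Dbp* below by its brightest probe but above by its second, and on AAV-Null replicate 4 *Dbp* was above and *Nr1d1* below. *Bmal1* deviated little on either array, at 10.37 and 10.35 against a group mean of 10.39.

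The 15 other clock genes were set against the mean standardised deviation of the 10 genes as a description. *Wee1*, a clock-controlled kinase, had r = 0.78 with it over the 8 arrays, whereas *Clock* had −0.84, *Csnk1e* −0.78 and *Rorb* −0.65. These are the 4 largest in size, and the other 11 lay between −0.45 and 0.49, the upper end being *Bmal2*, above background on 1 array only, with a median size of 0.41 over pairs of probes drawn from the array. With AAV-Null replicates 3 and 4 left out, *Clock* had −0.97, while *Wee1* had 0.15, *Csnk1e* 0.26 and *Rorb* 0.47. Among 12492 named genes outside the lists, those most like it were *Zfp426* (r = 0.984), *Ces5a* (0.98), *Snx4* (0.98), *Rbm18* (0.977) and *Brinp2* (0.975). All 5 had their highest value on AAV-Null replicate 4, and without both arrays their r lay between 0.72 and 0.99. Without AAV-Null replicate 4 alone, *Zfp426* had 0.53 and *Brinp2* 0.60.

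*Per1* and *Per2* also respond to glucocorticoids and to neuronal activity, so genes of those responses were compared in the same way. Of 9 glucocorticoid-responsive genes, 2 gave a lower signal after AAV-αSyn at an unadjusted p under 0.05 and 0 a higher one. *Zbtb16* differed by −1.27 on the log2 scale (exact permutation p = 0.114; limma, adjusted p = 0.701) and *Fkbp5* by −0.44 (exact permutation p = 0.0286, adjusted p = 0.76). The mean of the 9 genes was 11.25 on AAV-Null replicate 3, the lowest of the 8 arrays, where *Per1* was also lowest. Among them 4 genes had their lowest value on that array, as did 30.4% of all probes above background on all arrays. *Sgk1* was 1 of the 4, at 10.6 against 12.07 to 13.04 on the other arrays. By contrast, *Zbtb16* (12.2) and *Fkbp5* (10.77) on that array lay above all AAV-αSyn arrays.

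The relation of *Per1* to the mean of these 9 genes over the arrays gave r = 0.59 in deviations (exact permutation p = 0.139, adjusted 0.667 over 24 relations) and rho 0.40 (exact p = 0.327, adjusted 0.916), and −0.13 without the 2 arrays farthest from its median. Of 10 immediate early genes tested, 4 were higher and 0 lower in the AAV-αSyn group at an unadjusted p under 0.05. The largest were *Fos* (0.70, exact permutation p = 0.0857), *Nr4a1* (0.52, p = 0.0286) and *Junb* (0.43, p = 0.0571), with adjusted limma p of 0.787, 0.555 and 0.862. Of 5 temperature-responsive genes, 0 passed.

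The mean level of thalamic markers, a sign of neighbouring tissue in the dissected block, moved with the level of *Nr1d1*, mainly through 2 of the 4 genes. Of 4 thalamic markers tested, 1 was lower in the AAV-αSyn group at an unadjusted p under 0.05 and 0 after adjustment (*Prkcd*, log2 fold change −1.56, exact permutation p = 0.0857; limma, adjusted p = 0.785). Their mean ranged from 12.06 to 13.26 in the AAV-Null group, and from 11.83 to 12.38 in the AAV-αSyn group. It was highest on AAV-Null replicate 3 and lowest on AAV-αSyn replicate 1, as was *Nr1d1*. *Prkcd* and *Lef1*, which ranged over 3.32 and 2.16 log2 units, were highest on AAV-Null replicate 3. *Slc17a6* was not highest there (14.07), and *Calb2* had its lowest AAV-Null value there (15.25). The list mean and *Nr1d1* followed each other over the 8 levels, with r = 0.86 (exact permutation p = 0.00109, adjusted 0.0262 over 24 relations) and rho 0.93 (exact p = 0.00223, adjusted 0.0535), and r = 0.83 without the 2 farthest arrays. Each adjustment covers the 24 relations for a single measure, and none covers r, rho, levels and deviations together. The levels also hold the group difference, and both *Nr1d1* and the list mean were on average lower in the AAV-αSyn group. Within the groups, in deviations, r was 0.74 (exact p = 0.0433, adjusted 0.28) and rho 0.88 (exact p = 0.00724, adjusted 0.174), and r was 0.63 without the 2 farthest arrays. The part of neighbouring tissue in the difference of *Nr1d1* was not tested.

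The 6 serotonergic markers, 3 of them higher in the AAV-αSyn group at an unadjusted p under 0.05 and 0 after adjustment, had means of 5.85 to 7.81 on the AAV-Null arrays, with 7.81 on AAV-Null replicate 3, and of 7.20 to 8.24 on the AAV-αSyn arrays. Within the groups the correlation of *Nr1d1* with them passed the threshold before adjustment, by Pearson's r alone, and not after it (r = 0.88, exact p = 0.00665, adjusted 0.143; rho 0.62, exact p = 0.115, adjusted 0.634; r = 0.61 without the 2 farthest arrays). Over the levels it did not (r = 0.00, exact p = 0.997). *Per1* ran against them within the groups, again by Pearson's r and before adjustment only (r = −0.86, exact p = 0.0119, adjusted 0.143; rho −0.64, exact p = 0.0962, adjusted 0.634), and r was −0.11 without those arrays. Of the other relations with *Nr1d1*, 2 more had an exact p under 0.05 before adjustment and not after it. With the glucocorticoid-responsive genes, r within the groups was −0.73 (exact p = 0.0466, adjusted 0.28), rho was −0.38 (exact p = 0.36, adjusted 0.916), and r was 0.30 without the 2 farthest arrays. With the dopaminergic markers, rho over the levels was 0.79 (exact p = 0.0279, adjusted 0.335), r was 0.59 (exact p = 0.121, adjusted 0.892), and r was 0.89 without the 2 farthest arrays, while within the groups r was 0.07 (exact p = 0.877, adjusted 0.972). The relations with these lists were computed for *Nr1d1* and *Per1* only, after their values were seen. Of the remaining marker lists, choroid plexus had 1 of 6 genes lower (*Otx2*) at an unadjusted p under 0.05. Blood, astrocyte, oligodendrocyte, microglia, endothelial and suprachiasmatic nucleus lists had none in either direction, with list means of 8.49 to 8.70 (AAV-Null) and 8.42 to 8.89 (AAV-αSyn) for the suprachiasmatic genes.

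**Figure D5:**
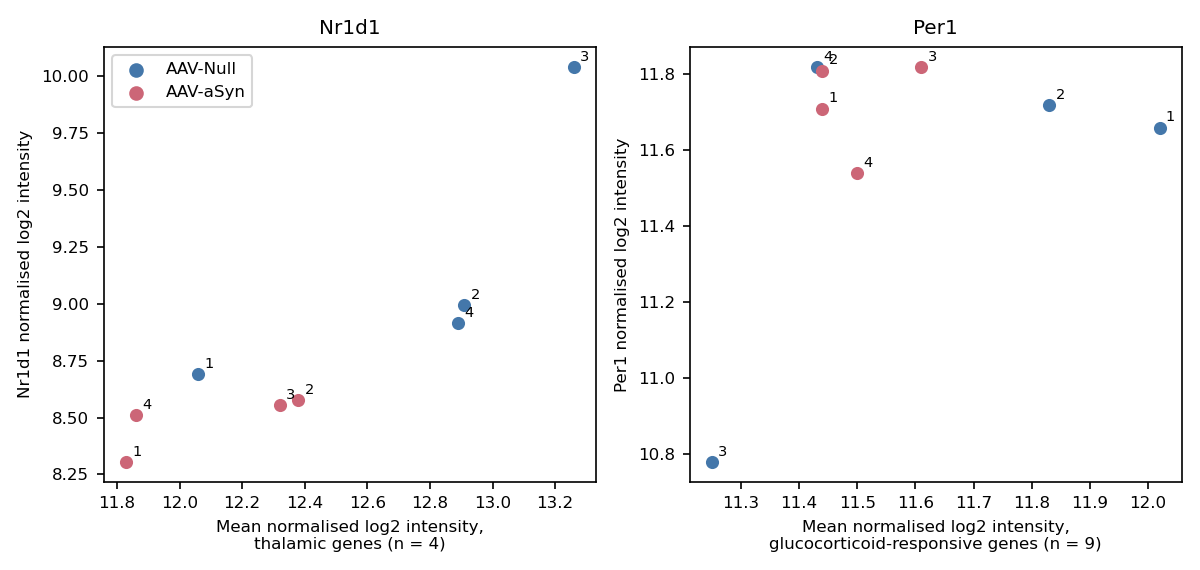
Left, normalised log2 intensity of *Nr1d1* (vertical axis) against the mean of 4 thalamic genes (horizontal axis). Right, *Per1* against the mean of 9 glucocorticoid-responsive genes, each point an array numbered by its replicate. AAV-Null replicate 3 is highest on both axes at the left and lowest on both at the right.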

How the data were processed

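The authors made Cy3-labelled cRNA from RNA of the SN and hybridised it to Agilent arrays in 1 colour. The deposited scanner files give each spot's intensity after the background correction of Feature Extraction, whose version is 11.5.1.1 per the labels and 12.0.3.2 per the file headers. The authors also deposited a matrix of quantile-normalised log2 values, used here as an alternative.

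Intensities were taken to log2 and quantile normalised without control and outlier spots, and spots of a probe were averaged. Probes with at least 0.5 of their spots well above background on at least 1 array were compared between groups with lmFit and eBayes (limma 3.58.1 in R 4.3.3), two-sided. This left out 11745 probes. The Benjamini–Hochberg adjustment ran over the 33853 others. A gene was represented by its brightest probe. Exact permutation tests took all 70 splits of the arrays, or all 40320 pairings for a correlation. For deviations from group means, these pairings treat the arrays of both groups as interchangeable, which they are not, so those p-values are approximate. Adjustment over relations ran separately for r and rho, and for deviations and levels. The number of arrays limits precision. Accessions gave a symbol for 21229 probes.

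Named genes are the 10 genes, the other clock genes with a probe, up to 3 genes of each further list with the largest change at an unadjusted p under 0.05, and the 5 genes most like the mean deviation. *Sgk1*, *Lef1*, *Slc17a6* and *Calb2* were named outside this rule, after their values were seen. The members and lists were chosen with earlier results of these data known. One further clock component is not reported here and was left out of its list. Alternatives were another scaling (75th percentile, cyclic loess), normexp with an offset of 50, other filters, the deposited matrix, an intensity trend, array weights, blocks for replicate number and slide column, and each array left out. The procedure was tested on simulated data.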

Additional observations from a re-analysis of the deposited data

Results flagged for a closer look

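Among the 50 groups of 4 arrays examined over the clock genes, 3 had an array far from the others, in that its distance to the next array took up more of the group's range than Dixon's test allows. Chance gives 2.5, about 1 in 20 groups. *Per1* on AAV-Null replicate 3, at 10.78, was the first, where the other AAV-Null values ran from 11.66 to 11.82 (gap over range 0.845). *Csnk1e*, which encodes a kinase that phosphorylates the period proteins, was 8.63 on AAV-Null replicate 4, and the rest of the group ran from 9.31 to 9.38 (0.908). *Bmal1* was 10.54 on AAV-αSyn replicate 2, and the rest of its group ran from 10.41 to 10.43 (0.837).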

How the results depend on the processing

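The count of clock output genes past the Benjamini–Hochberg adjustment was 0 under every alternative run. Past an unadjusted p of 0.05 it was 1 under all 10 processing alternatives and from 0 to 2 with 1 array left out, being 0 without any 1 of the AAV-αSyn arrays, where *Nr1d1* no longer passed, and 2 without AAV-Null replicate 4 (*Per2* and *Nr1d1*), where the share of all probes past it went from 5.64% to 8.28%. It was 2 with AAV-Null replicates 3 and 4 both left out (9.23% of all probes), an alternative chosen after seeing the data, as was the dimmer probe of genes with 2 probes. *Nr1d1*, *Nr1d2*, *Dbp* and *Per2* kept their direction throughout. *Cry1* was 0.00 with cyclic loess and −0.02 with array weights, which gave 0.04 for *Cry2* and 0.06 for *Tef*. Without both AAV-Null replicates, *Cry2* and *Tef* were each 0.05. With 1 array left out, the log2 fold changes ranged from −0.01 to 0.33 for *Per1*, −0.09 to 0.18 for *Per3*, −0.04 to 0.05 for *Cry1*, −0.07 to 0.00 for *Cry2*, −0.17 to −0.02 for *Nr1d2*, −0.24 to −0.03 for *Dbp*, −0.05 to 0.02 for *Tef* and −0.08 to 0.15 for *Ciart*. The median r of the pairs ranged from 0.05 to 0.41 and was −0.08 with normexp. With the replicate number as a block, *Nr1d1* was −0.67 with a limma p of 0.0281 before adjustment and still the only gene past an unadjusted p, while probes past the adjustment fell from 5 to 0. Same-numbered arrays correlated in their deviations at 0.10, 0.16, 0.20 and 0.01. Numbers 1, 2 and 3 matched best with their own number in both directions, and number 4 did not. The main fit did not take the numbers as pairs. The number is also the row on the slide, so that a likeness by number and one by row cannot be told apart. Array weights raised the probes at an unadjusted p under 0.05 from 1908 to 5761, and those past the adjustment from 5 to 12. The cause of these changes was not tested.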
